A study of Mus musculus with 9 samples.

Results

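Cacna1c, the gene of the pore-forming subunit of the Cav1.2 L-type calcium channel, was followed in the aortae of 9 male C57BL/6J mice through 1 probe of a long noncoding RNA and mRNA array. The normalized signal of this probe was close to 4.5 on the log2 scale in Vehicle mice, fell to the bottom of the measured range in mice infused with angiotensin II (Ang II), and lay between 4.01 and 4.42 in mice that received Ang II and MK-626. On 2 of the 3 Ang II arrays the Cacna1c signal was the lowest value that the array holds, which it shared with 14908 and 13245 other probes. The size of the fall and of the difference with MK-626 is therefore bounded on 1 side only.

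Cacna1c was examined because the study had picked it from these arrays as an mRNA that was lower with Ang II and higher when MK-626 was added. Its direction in those comparisons is the ground for the choice, so the levels are described below without a test. The deposited table names probes and not genes, and the probe ASMM10P033697 was assigned to Cacna1c because it alone carries the values that the study printed for this gene. It is 1 of 60834 probes that were not control probes.

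The Cav1.2 channel opens when the membrane of a cell depolarizes and lets calcium into the cytosol. In the smooth muscle of arteries this calcium binds calmodulin and starts contraction through myosin light chain kinase, which is why blockers of L-type channels lower blood pressure, and in the heart the same channel carries the calcium current that couples excitation to contraction. In endothelial cells, cytosolic calcium is an activator of endothelial nitric oxide synthase, the enzyme whose product relaxes the vessel wall.

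All mice were 8 to 10 weeks old and carried a subcutaneous osmotic pump. Vehicle mice had PBS in the pump, Ang II mice received 1 mg/kg/day of Ang II, a peptide hormone that constricts vessels and raises blood pressure, and Ang II + MK-626 mice received the same infusion with 3 mg/kg/day of oral MK-626. MK-626 inhibits DPP-4, the protease that degrades the incretin hormone GLP-1, and treatment lasted 2 weeks in each group. There were 3 mice and 3 arrays per group and no mice given MK-626 alone, so a value in Ang II + MK-626 mice is always that of the drug on top of Ang II. The Vehicle and Ang II arrays were shared with a companion study, and their labels speak of berberine where those of the remaining arrays speak of MK-626. RNA came from the whole aorta after adhering tissue was cleaned off. In such bulk RNA, fewer cells that express Cacna1c and less Cacna1c RNA per cell cannot be told apart, and the share from smooth muscle, endothelium or other cells was not measured. Over all probes, replicate arrays correlated at r = 0.993 to 0.996 (Vehicle), 0.983 to 0.990 (Ang II) and 0.987 to 0.992 (Ang II + MK-626).

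RefSeq places Cacna1c on the minus strand of chromosome 6 in the GRCm38.p6 build of the mouse genome, with 11 curated and 41 predicted transcripts. It lists 3 separate transcription starts, which lie in the windows chr6:119196360-119196659, chr6:119108446-119108745 and chr6:118757925-118758224. Neighbouring starts are 87914 and 350521 bases apart. The position and sequence of the array probe were not given in the sources used here, so transcripts from these starts were not measured apart and no exon can be named for the probe. The gene-level signal of a single probe is all that the values below hold.

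In Vehicle aortae the normalized log2 signal of Cacna1c was 4.47, 4.56 and 4.50 on the 3 arrays, a mean of 4.51 ± 0.05 (SD, n = 3). In Ang II aortae it was 2.35, 2.33 and 2.86, a mean of 2.51 ± 0.30 (SD, n = 3). In Ang II + MK-626 aortae it was 4.15, 4.42 and 4.01, a mean of 4.19 ± 0.21 (SD, n = 3). Every Ang II array was below every array of the other 2 groups, and Ang II replicate 3 was the highest of its group. The same separation from both groups was seen in 5818 probes, 9.56% of all, and Cacna1c was chosen for this direction, so nothing is read from it. The arrays of a group lay within 0.09 of each other in Vehicle, within 0.53 in Ang II and within 0.41 in Ang II + MK-626.

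**Figure D1:**
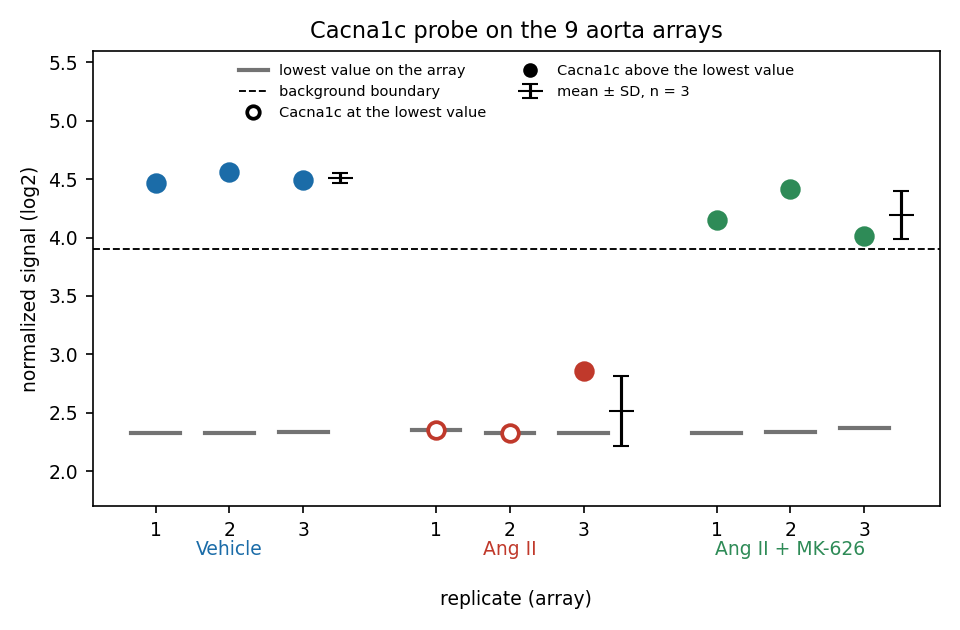
Normalized log2 signal of the Cacna1c probe (vertical axis) on each of the 9 aorta arrays (horizontal axis, by group and replicate), with the group mean ± SD (n = 3) beside the points, the lowest value of each array as a grey bar and the background boundary of 3.9 as a dashed line. The points of Ang II replicates 1 and 2 are open because they coincide with the lowest value of their array, whereas all Vehicle and Ang II + MK-626 points lie above the dashed line.

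The 2 lower Ang II values lay at the limit of the scale. On Ang II replicate 1, Cacna1c stood at 2.35, the lowest value of the array, together with 14908 other probes, and the next value above it was 2.73. On Ang II replicate 2, it stood at 2.33, again the lowest value, together with 13245 other probes, with 2.43 as the next value. No probe was below Cacna1c on either array. Such a shared lowest value is a floor, and a probe on it has no order among the others and no measured distance from them. On Ang II replicate 3, Cacna1c was 0.53 above the lowest value of 2.32. This is the only Ang II array on which the probe was above the floor.

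**Figure D2:**
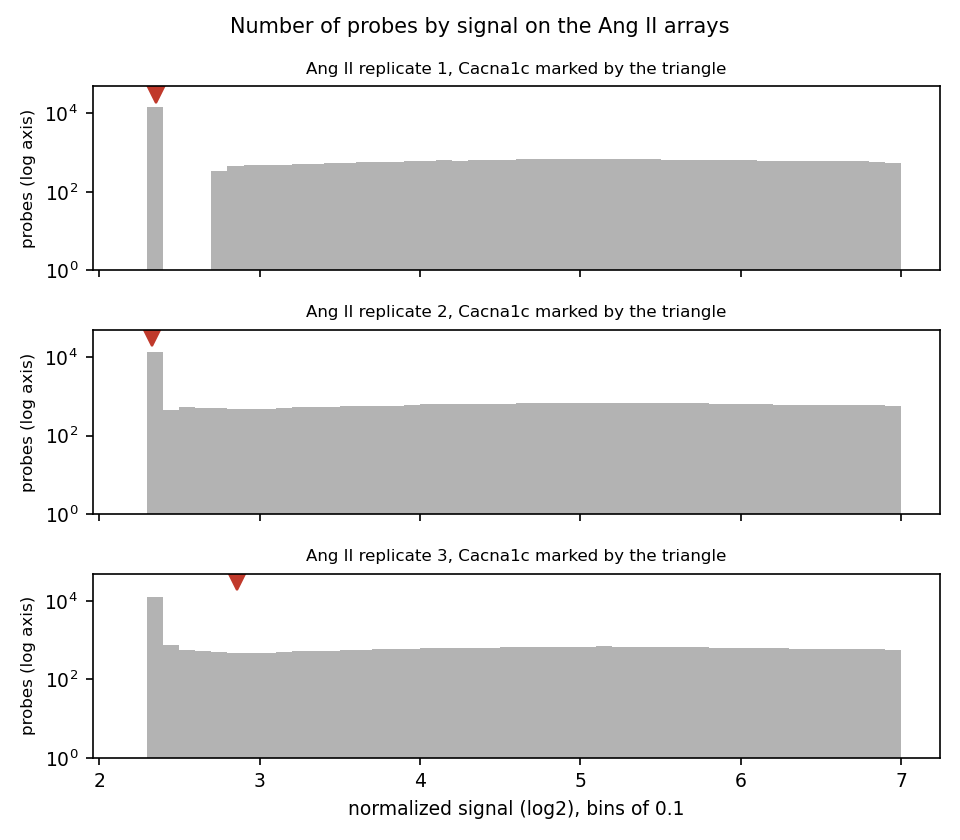
Number of probes (vertical log axis) by normalized log2 signal (horizontal axis, bins of 0.1, shown up to 7) on the 3 Ang II arrays, with the Cacna1c value marked by a triangle. The tall first bar of each panel holds the shared lowest value, at which 24.5%, 21.8% and 19.8% of the probes stood on replicates 1, 2 and 3 (on replicate 3 the bar also holds probes just above it), and Cacna1c lies in it on replicates 1 and 2 and to its right on replicate 3.

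The floor itself was a feature of all 9 arrays, held by 12875, 12858 and 13735 probes on the Vehicle arrays and by 13522, 14069 and 15398 probes on the Ang II + MK-626 arrays. On those of the last group, for which scanner files were analysed, every probe with 1 spot at the floor had a processed signal below 5, at most 4.994, 4.9995 and 4.997 on replicates 1, 2 and 3, and every one above the floor had more than 5. A processed signal is the spot intensity after background subtraction, on a linear scale. The floor thus corresponds to a processed signal of 5 on these arrays. The scanner files of the Vehicle and Ang II arrays were not analysed here. Cacna1c was 2.15, 2.23 and 2.16 above the floor on the Vehicle arrays and 1.82, 2.08 and 1.64 above it on the Ang II + MK-626 arrays.

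The probe was dim in every group. On the Ang II + MK-626 arrays, 1 spot was printed for Cacna1c, with a processed signal of 16.9 ± 2.98, 19.9 ± 3.52 and 11.8 ± 2.78 on replicates 1, 2 and 3, where the error is that of the scanner software for a single spot. The signal was thus 5.68, 5.64 and 4.24 times its error. The median brightness of the spot before subtraction was 39, 40 and 28, against a local background of 15, 15 and 14. The array's 75th percentile of processed signal was 237.8, 235.3 and 200.9, so Cacna1c lay far below it. Compared with 308 negative control spots on each array, which measure no mouse RNA, Cacna1c was brighter than all but 1, 2 and 2 of them. The median processed signal of these spots was 2.59, 2.84 and 2.32, below the floor of 5, so no fold is given.

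The scanner software marks a spot as well above background by a stricter rule and as positive and significant by a more lenient one. Cacna1c met the stricter rule on Ang II + MK-626 replicates 1 and 2 and not on replicate 3, and it was positive and significant on all 3. It was neither saturated nor an outlier on any of them. Among probes within 0.05 of the Cacna1c log2 value on the same array, 100% of 641 and 100% of 639 were well above background on replicates 1 and 2, against 56.4% of 621 on replicate 3. Replicate 3, with the lowest Cacna1c value of the group, was also the array of another scan than replicates 1 and 2. What the scan contributed was not tested.

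**Figure D3:**
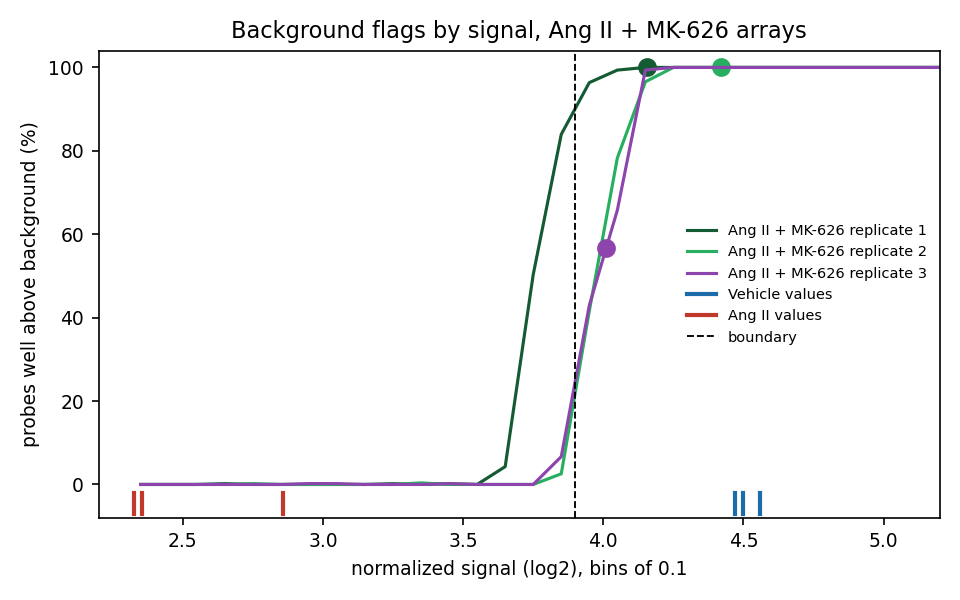
Share of probes that the scanner software marked as well above background (vertical axis, %) by normalized log2 signal (horizontal axis, bins of 0.1) on the 3 Ang II + MK-626 arrays, with the Cacna1c value of each array as a point on its curve, the Vehicle and Ang II values as ticks on the lower edge, and the boundary of 3.9 as a dashed line. Cacna1c lies at 100% on replicates 1 and 2 and on the steep part of the curve on replicate 3, while the 3 Ang II ticks fall where almost no probe was well above background.

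A background boundary was read from these arrays as the log2 value from which at least 50% of probes were well above background. It was 3.7, 4 and 4 on replicates 1, 2 and 3, and Cacna1c on replicate 3, at 4.01, was only just above that of its own array. The mean boundary was 3.9. Vehicle values of Cacna1c were 0.57, 0.66 and 0.60 above this mean, and Ang II + MK-626 values were 0.25, 0.52 and 0.11 above it. Ang II values differed from it by -1.55, -1.57 and -1.04. The boundary was carried over to the Vehicle and Ang II arrays on the ground that all arrays were normalized to a common distribution. By the lenient mark the boundary was 2.57, which Ang II replicate 3 exceeded and the other 2 Ang II arrays did not.

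For Ang II against Vehicle, the question is how Ang II infusion alone changes the aortic RNA level. The Ang II mean of Cacna1c differed from the Vehicle mean by -1.996 on the log2 scale, nominally a 3.99-fold lower level, and a gap of 1.61 separated the highest Ang II array from the lowest Vehicle array. Of all probes 21.9% were lower in Ang II than in Vehicle without overlap, and 3.65% were over 2-fold lower with an unadjusted p under 0.05 in limma. Since Cacna1c was chosen from this contrast, nothing is read from its place among them. The nominal fold takes the floor as a measured level. With the Ang II group set to the lowest log2 value that passed the stricter mark among probes with 1 spot on the arrays with scanner files, 3.79 on average, Vehicle was at least 1.65-fold higher, and against the boundary of 3.9 it was at least 1.53-fold higher. Below that lowest value only 3 probes per array were marked as well above background, each of which has 20 spots. Against the boundary at 90% of probes well above background, 4.03, Vehicle was at least 1.39-fold higher. These bounds assume that the limits, read on the Ang II + MK-626 arrays, also hold on the Ang II arrays. The nominal difference of Ang II replicate 3 alone from the Vehicle mean was -1.65, but this single value is also below the boundary and gives no measured size.

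For the second comparison, of Ang II + MK-626 mice with Ang II mice, the question is what the drug adds during the infusion. The Cacna1c mean was 1.68 higher on the log2 scale, nominally 3.21-fold, with a gap of 1.15 between the groups. Of all probes 14.7% were higher in Ang II + MK-626 than in Ang II without overlap, and 1.86% passed the thresholds of 2-fold and unadjusted p in limma in this direction. This contrast was part of the choice as well, and both contrasts use the same 3 Ang II arrays, so the floored values enter each of them. The nominal bounds were 1.33-fold against the lowest value well above background among probes with 1 spot and 1.23-fold against the boundary. On the log2 scale they were 0.41 and 0.29. Both use the mean of all 3 Ang II + MK-626 arrays, of which 2 had a Cacna1c spot well above background. The limits were carried over to the Ang II arrays, and the SD between spots of 1 probe at a like signal had a median of 0.35 to 0.44. Neither bound is therefore assured. With the boundary at 90% of probes, the bound was 1.12-fold, and Ang II + MK-626 replicate 3 lay below that boundary. Against Ang II replicate 3 alone, the nominal difference was 1.34, with the same limit.

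The levels in Ang II + MK-626 and Vehicle are both above the floor, so their difference is the only one of the 3 in which each array contributed a value of its own. The Ang II + MK-626 mean minus the Vehicle mean was -0.31 on the log2 scale, nominally 1.24-fold lower, and the groups did not overlap. The lowest value of the Ang II + MK-626 group, on replicate 3, came from the spot that was not well above background. The gap between the highest Ang II + MK-626 array, at 4.42, and the lowest Vehicle array, at 4.47, was 0.05. Of all probes 17.7% were lower in Ang II + MK-626 than in Vehicle without overlap, so that separation of this kind was common on these arrays. In the order of group means, Vehicle is followed by Ang II + MK-626 and then by Ang II, and whether the first pair differ beyond the error of a single dim spot was not tested.

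The technical spread of a single dim spot can be read from probes that the array carries many times. Each Ang II + MK-626 array holds 30 probes with 20 spots each. Of these, 3, 1 and 3 had a mean within 2-fold of the Cacna1c signal on replicates 1, 2 and 3. The SD between the spots of such a probe on 1 array had a median of 0.44, 0.35 and 0.43 on the log2 scale. These values hold the technical spread of single spots and not that between mice, and no such spots were read for the Vehicle and Ang II arrays.

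The spread of Cacna1c was set beside that of probes at a like level. Among 3251 probes with a Vehicle mean within 0.25 of that of Cacna1c, the median SD over the Vehicle arrays was 0.19, against 0.05 for Cacna1c. The choice of a gene by a threshold on p favours a small spread within groups, so nothing is read from this SD of 3 single spots. In Ang II + MK-626 the median SD of these probes was 0.26, and 36.9% had a smaller SD than Cacna1c. In Ang II the median was 0.30, and 49.8% had a smaller SD, but the SD of Cacna1c there rests on 2 floored values and describes no biological spread.

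The normalized values of all arrays follow a common distribution, so the place of Cacna1c among the probes of an array restates its value. In Vehicle, 40.5%, 41.4% and 40.8% of probes had a lower value. In Ang II + MK-626 it was 37.2%, 39.97% and 35.7%. In Ang II the values lay below the background boundary, where such a place is not given.

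Probes that went from above the boundary to the floor were counted. Of 38149 probes at or above the boundary on all Vehicle arrays, 75 were at the floor on 2 or more Ang II arrays. Of these, 8 probes, Cacna1c included, were at or above the boundary on all Ang II + MK-626 arrays, and 7 of the 8 had exactly 2 Ang II arrays at the floor. With the boundary at 90%, 5 probes met this description and Cacna1c was not among them. The 38149 probes include bright ones, which need a larger fall to reach the floor. Among the 3251 probes with a Vehicle mean within 0.25 of that of Cacna1c, 32 were at the floor on 2 or more Ang II arrays. For 24 of the 3251, the Ang II mean was further below the Vehicle mean than for Cacna1c. These counts use the values by which Cacna1c was chosen and describe how many probes look like it on this array. In limma, 2222 probes were over 2-fold lower in Ang II than in Vehicle with an unadjusted p under 0.05. Of these, 216 (9.72%) were at the floor on 2 or more Ang II arrays, as Cacna1c was. Among the 700 of them also called higher in Ang II + MK-626 than in Ang II, it was 46 (6.57%). Leaving out every probe at the floor on 2 or more Ang II arrays kept 47321 of all 60834 probes. Such floored probes were thus less common among the called probes than among all probes.

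The probes with the pattern most like that of Cacna1c were sought by the root mean squared distance over the 9 arrays, after each probe was centred on its own mean. The nearest were ASMM10P031882 at a distance of 0.12, ASMM10P054649 at 0.12, ASMM10P018565 at 0.14, ASMM10P006884 at 0.16 and ASMM10P055702 at 0.17, all on the log2 scale. Over 60833 probes the median distance was 0.89, and 62 probes lay within 0.25 of Cacna1c. No gene name could be given to any of them. Of the Cacna1c profile, 2 Ang II values are the floor and the third is below the boundary, so the distances describe likeness to the values as deposited and could change with the unmeasured level. The same low Ang II level was the ground for choosing Cacna1c. The nearest, ASMM10P031882, had a Vehicle mean of 9.82, an Ang II mean of 7.87 and an Ang II + MK-626 mean of 9.55. None of the 5 was at the floor on any array. Their group means ran from 7.30 to 14.26, levels at which each array gives a value of its own. Under Pearson correlation over the 9 arrays none of the 5 was among the nearest 5, so the identity of the closest probes depends on the measure of likeness.

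**Figure D4:**
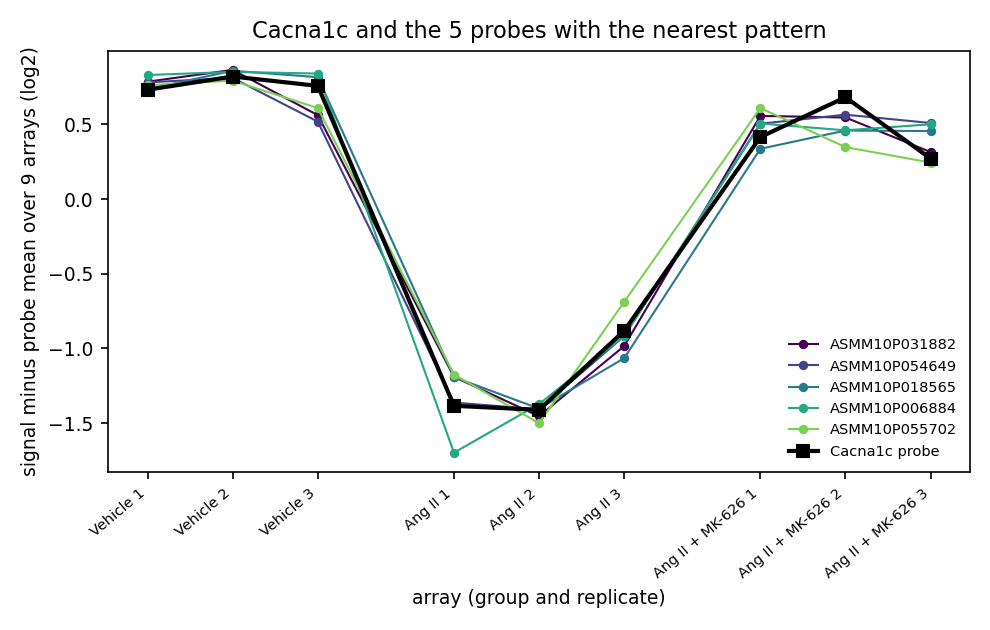
Normalized log2 signal of the Cacna1c probe (black squares) and of the 5 probes nearest to it in pattern (coloured circles), each minus its own mean over the 9 arrays (vertical axis), on each array by group and replicate (horizontal axis). Lines only join the values of 1 probe, and all 6 profiles lie above their mean in Vehicle and Ang II + MK-626 and below it in Ang II, where Cacna1c at replicates 1 and 2 is limited by the floor.

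Of the mRNAs that the study printed beside Cacna1c, 7 others could be matched to a probe. Only Cacna1c was at the floor on any Ang II array, and Chrm2, the M2 muscarinic receptor, was at the floor on 1 Ang II + MK-626 array. Itga8, an integrin subunit of smooth muscle, had a log2 mean of 8.71 in Ang II, against 10.96 in Vehicle and 10.57 with MK-626 added, and its ligand nephronectin (Npnt) had 6.65, against 8.63 and 8.36. The integrin subunit Itgav had 5.70, against 7.38 and 7.26. These 3 mRNAs shared the low Ang II level of Cacna1c at signals clear of the background, and the study chose them on the same arrays for this pattern.

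The remaining matched mRNAs include 3 that are known from cardiac muscle, which also expresses Cacna1c. Tnni3, cardiac troponin I, had a log2 mean of 12.68 ± 0.19 in Ang II, against 7.64 ± 0.08 in Vehicle and 7.89 ± 1.45 with MK-626 added (SD, n = 3). Mylk3, the cardiac myosin light chain kinase, had 8.36 in Ang II, against 5.39 in Vehicle and 4.92 with MK-626 added. Chrm2 had 7.25 in Ang II, and its means of 3.30 in Vehicle and 3.14 with MK-626 added are below the background boundary and are not levels. The part of such RNA in the Cacna1c values was not tested. The markers of smooth muscle, endothelium and other cells of the aortic wall, the remaining calcium channel subunits and the genes of calcium handling and contraction could not be matched to probes, so neither the tissue label nor the rest of the channel complex was checked against them.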

How the data were processed

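RNA of 9 whole aortae was labelled in 1 colour and hybridized to Arraystar Mouse LncRNA arrays. The authors extracted spot signals with Agilent Feature Extraction 11.0.1.1, applied quantile normalization in GeneSpring GX and deposited log2 values of 60902 probes. The intensity and background flags of each spot were read from the deposited scanner output of the 3 Ang II + MK-626 arrays. After 68 control probes were left out, 60834 probes remained. The Cacna1c probe was described by mean, SD and range per group. Groups came from the sample titles. Shares over all probes were computed in R 4.3.3 with limma 3.58.1, which fitted the 3 group means to all 9 arrays. Python 3.11.15, numpy 2.4.6, pandas 2.3.3 and matplotlib 3.10.9 were used for tables and plots. The probes named as nearest in pattern were the 5 with the smallest distance. Alternatives were other scalings, medians, floors, tests and filters, the replicate number as a block, and leaving out each array. Cacna1c and the lists were chosen with earlier results of these data known. Lists of calcium genes and cell type markers were planned and not run, because probes carry no gene names. Normexp used the median spot signal, since the mean signal was not analysed here. Flags and scan of the Vehicle and Ang II arrays were not analysed, so array batch and group may be confounded. The number of arrays and the signal over background limit the precision.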

Additional observations from a re-analysis of the deposited data

How the results depend on the processing

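The direction of the 3 Cacna1c differences was the same under all scalings that were run. Medians, left-out arrays and values set to the boundary could not reverse it, because the groups do not overlap. The direction in those settings is therefore no test. The direction of both contrasts with Ang II was also the ground for choosing Cacna1c. The Ang II minus Vehicle difference ran from -2.17 to -1.90 with 1 array left out and was -1.93 after cyclic loess, and it was -0.61 with values below the boundary set to it, -1.65 with Ang II replicate 3 alone and -0.72 with Ang II at the lowest value well above background among probes with 1 spot. The same settings gave 1.57 to 1.85, 1.65, 0.29, 1.34 and 0.41 for Ang II + MK-626 minus Ang II. Ang II + MK-626 minus Vehicle ran from -0.43 to -0.22 and was -0.28 after loess, where the gap between the groups was 0.03. The settings that use replicate 3 alone or the lowest value well above background were chosen after seeing the data. They shrink the differences by construction, since they raise or drop the floored values. Among the Ang II + MK-626 arrays, the SD of Cacna1c was 0.26 for the scanner signal relative to the 75th percentile. It was 0.01 after normexp with an added offset of 50, which compresses dim signals.

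Of the 5 nearest probes, 0 were kept under Pearson correlation and 3 to 4 with 1 array left out. The boundary was 2.57 under the lenient flag and 4.03 at 90% of probes, which Cacna1c passed on 3 Vehicle arrays and 2 Ang II + MK-626 arrays. With dim probes left out, 9.50% of probes in Vehicle and 5.57% in Ang II + MK-626 were below Cacna1c, against 40.9% and 37.6%, because fewer dim probes remain. Counts of probes past the threshold stayed within 1.5 times the reported ones under each alternative. The replicate numbers did not pair the arrays. After each probe's group mean was subtracted, the deviations of same-numbered arrays correlated at -0.116 to 0.0437. With the replicate block 2182 probes were lower in Ang II than in Vehicle, against 2222, and 1125 were higher with MK-626, against 1134.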
